A study of Homo sapiens with 6 samples.

Results

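The respiratory chain and ATP synthase of the inner mitochondrial membrane are built from subunits of 2 genomes, and the nuclear-encoded ones are described here. Rows classed as protein coding were taken when their symbol was NDUFA, NDUFB, NDUFC, NDUFS or NDUFV with a number, SDHA to SDHD, or began with UQCR, COX4 to COX8 or ATP5. This rule found 87 genes among the 58825 rows of the deposited table, of which 37 belong to complex I, 4 to complex II, 9 to complex III, 17 to complex IV and 20 to complex V. Some symbols are older ones, as with ATP5MD and ATP5MPL, and NDUFA4 is counted with complex I by its name although its protein is found in complex IV. NDUFAB1 and CYC1, subunits whose symbols the rule does not reach, are given with the other genes of the pathway.

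Messenger RNA was sequenced in T24, a line of human bladder carcinoma cells long kept in culture, in 2 groups. The shDLGAP5-1 group (genotype label shDLGAP5-1) carried a hairpin against DLGAP5, a protein of the mitotic spindle, and the shNC-1 group (genotype label WT) carried a control hairpin, with 3 libraries each. The series asks about DLGAP5 in bladder cancer, and 1 hairpin in 1 line represents the knockdown. Separate cultures are not named in the labels; the p-values therefore reflect the spread between these libraries alone, which may be technical. In bulk RNA, a lower level in every cell and a loss in some of the cells cannot be told apart.

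Complexes I to IV pass electrons to oxygen and, apart from complex II, pump protons out of the mitochondrial matrix. Complex V, the ATP synthase, lets the protons flow back through a rotor ring of c subunits and uses the rotation to make ATP. Cancer cells in culture often draw much of their ATP from glycolysis, yet most keep a working chain, which also serves to regenerate oxidised cofactors.

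DLGAP5 itself stood at 5.03, 4.0 and 7.51 FPKM in the shDLGAP5-1 libraries, against 33, 32.7 and 29.7 FPKM in the shNC-1 libraries. FPKM are fragment numbers scaled for the length of the transcript and the size of the library. The groups did not overlap and DLGAP5 fell by 2.37 on the log2 scale (standard error 0.19, limma adjusted p = 0.000894). Depth was estimated approximately from single-exon genes, whose most frequent product of FPKM and length was taken for that of a single fragment. It came to 13700000 to 18300000 fragments in shDLGAP5-1 and 21600000 to 27500000 fragments in shNC-1. Keratin genes KRT7, KRT8 and KRT18 were high in all 6 libraries (237 to 855 FPKM), whereas the uroplakins UPK1B and UPK2 and the cadherin CDH1 were under 1 FPKM in every library. The uroplakin UPK3A was at 2.28 FPKM in shDLGAP5-1 replicate 3 and listed at 0 in the other 5 libraries. Of 12 urothelial and epithelial markers, 5 reached 1 FPKM in 3 libraries, and of these KRT19 was called, lower (−0.76, limma adjusted p = 0.00438). The 12 leukocyte markers summed to 17.9, 8.68 and 736 FPKM in shDLGAP5-1 replicates 1 to 3, against 13.8, 9.73 and 31.8 FPKM in shNC-1 replicates 1 to 3. In shDLGAP5-1 replicate 3, LYZ gave 686, TYROBP 11.2, S100A9 10.2, PTPRC 7.03, S100A8 4.52, CSF1R 2.45 and ITGAM 1.4 FPKM, each the highest value of the 6 libraries. The lymphoid markers CD3E and MS4A1 were listed at 0 in all libraries. Of the endothelial markers, PECAM1 stood at 0.241, 0.0634 and 8.45 FPKM in shDLGAP5-1 replicates 1 to 3, against at most 0.388 FPKM in shNC-1. The others were not raised in shDLGAP5-1 replicate 3, where VWF and CDH5 were listed at 0 and KDR at 0.0109 FPKM. The part of such cells or RNA in the results was not tested. Counts of subunit genes are therefore also given without shDLGAP5-1 replicate 3.

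Few of the subunit genes differed between the hairpins. Of the 87, 79 reached 1 FPKM in at least 3 libraries and were tested, and among these 2 were higher and 4 lower in shDLGAP5-1, or 7.59%, at a limma adjusted p under 0.05. Over all 12714 genes tested in the same fit 24.8% passed, 15.3% higher and 9.52% lower, so the share among the subunits lay below this background. Of all calls 61.6% were higher, which came to 48.1% with same-total scaling, 42.3% with median-ratio scaling and 50% with the length trend removed. The 2 higher genes were ATP5MC2 of complex V and COX7B of complex IV. The 4 lower genes were ATP5MC1 and ATP5MC3 of complex V, SDHB of complex II and NDUFS1 of complex I. The 3 ATP5MC genes encode the same mature c subunit, and thus 1 gene family held calls in both directions. Without shDLGAP5-1 replicate 3, 4 subunit genes were higher (ATP5MC2, NDUFA13, NDUFB4 and SDHC) and 1 was lower (NDUFS1). This came to 6.33%, against 24.7% of all tested genes in that fit.

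By the libraries alone, 9 subunit genes were higher and 8 lower in all shDLGAP5-1 libraries than in all shNC-1 libraries, where 25.6% and 18.3% of all tested genes did so. The median log2 fold change (shDLGAP5-1 over shNC-1, of FPKM plus 1) was 0.10 over the 79 subunit genes and 0.03 over all tested genes. The median of the subunit genes turned to −0.01 when columns were scaled to the same total, to −0.02 with median-ratio scaling and to −0.03 with a length trend removed. Those settings also moved the median of all genes, to −0.06, −0.07 and −0.01. Estimates were less widely spread than for genes at large: the quartiles lay at −0.10 and 0.26 for subunit genes and at −0.24 and 0.34 for all genes, with median standard errors of 0.17 and 0.15. A change of at least 0.5 on the log2 scale, or 1.41-fold, was estimated for 9 subunit genes (11.4%) and for 26.2% of all tested genes.

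**Figure D1:**
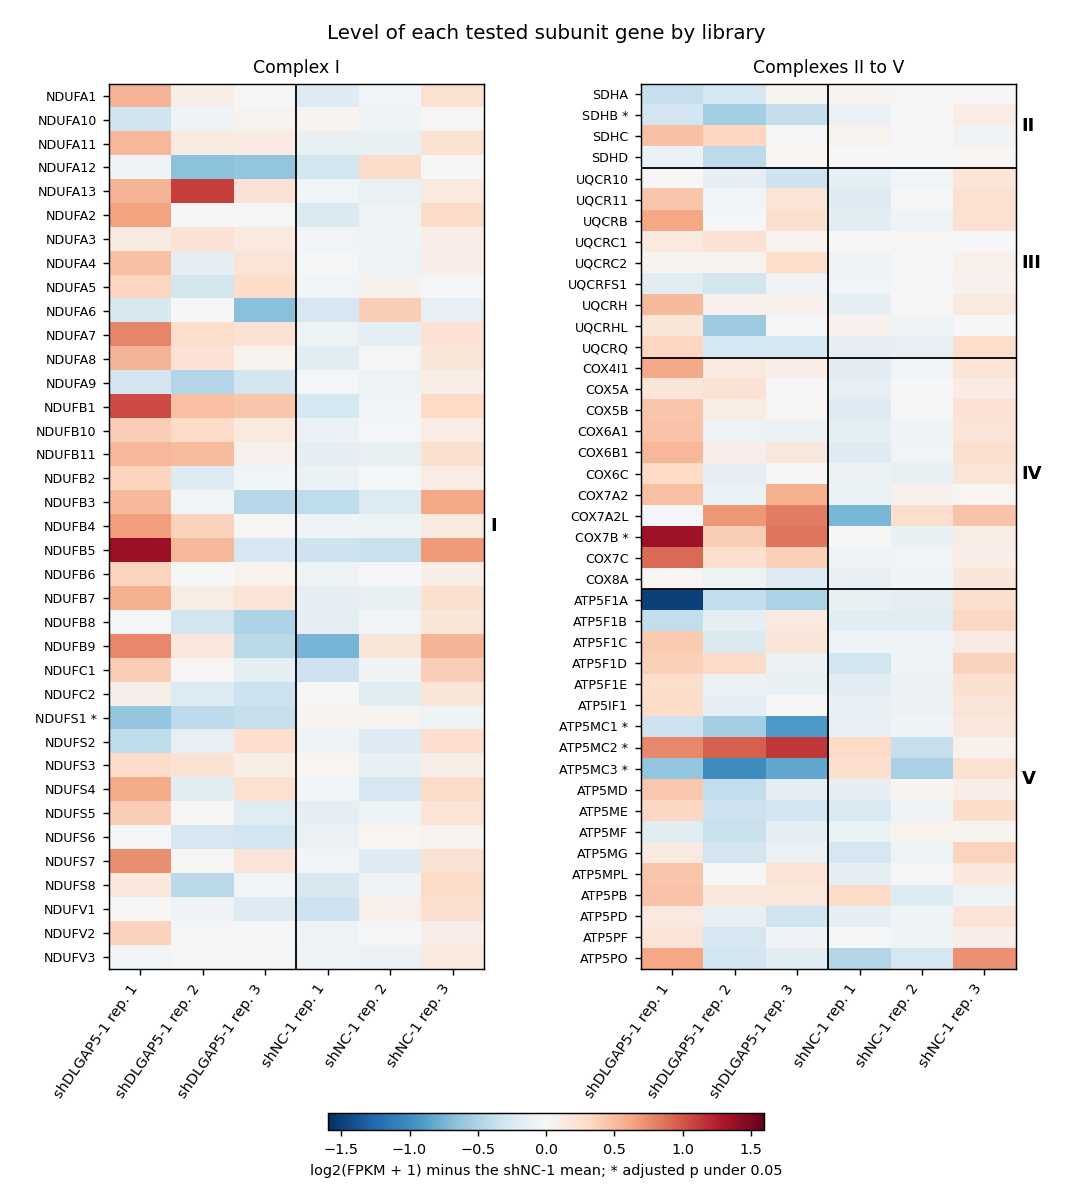
Heat map of the 79 tested subunit genes (rows, by complex) in the 6 libraries (columns, shDLGAP5-1 left and shNC-1 right); colour is log2(FPKM + 1) minus the mean of the shNC-1 libraries, and an asterisk marks an adjusted p under 0.05. The column of shDLGAP5-1 replicate 1 is mostly red, and ATP5MC2 (red) and ATP5MC3 and ATP5MC1 (blue) differ in all 3 shDLGAP5-1 columns.

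1 library stood apart for these genes. In shDLGAP5-1 replicate 1, 44 of the 79 subunit genes had their highest value of the 6 libraries, against 4 and 7 in shDLGAP5-1 replicates 2 and 3 and 1, 4 and 19 in shNC-1 replicates 1 to 3. The median subunit gene lay 0.35 above the shNC-1 mean on the log2 scale in shDLGAP5-1 replicate 1, at −0.05 in replicate 2 and at 0.00 in replicate 3, against −0.12, −0.06 and 0.19 in shNC-1 replicates 1 to 3. The groups overlapped in this median. Subunit genes are short, with a median longest transcript of 1582 bases where that of all tested genes is 3413 bases. All tested genes under 1500 bases were also highest in shDLGAP5-1 replicate 1, with medians of 0.30, 0.12 and 0.08 in shDLGAP5-1 replicates 1 to 3, against −0.07, −0.03 and 0.11 in shNC-1 replicates 1 to 3; in shDLGAP5-1 replicate 2 they stood above the shNC-1 mean, where the subunit genes did not. Genes of at least 5000 bases had medians of −0.19, −0.03 and 0.11 in shDLGAP5-1, against 0.07, 0.03 and −0.11 in shNC-1.

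With the length trend of each library removed, the subunit medians were 0.09, −0.14 and −0.10 in shDLGAP5-1 replicates 1 to 3, against −0.08, −0.04 and 0.11 in shNC-1 replicates 1 to 3. In that fit 2 subunit genes were higher and 8 lower (12.7% of 79, where 29.8% of all genes passed). Of the 6 genes called on the values as deposited, 5 were called again, and ATP5MC3 was not (−0.80, adjusted p = 0.0546). The 5 genes added were all lower and were short ones: NDUFS6, NDUFB8 and NDUFA12 of complex I, UQCR10 of complex III and ATP5MF of complex V. Without shDLGAP5-1 replicate 1 and with values as deposited, 2 subunit genes were higher and 3 lower (6.33%, against 21.5% of all tested genes), and their median was −0.01.

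**Figure D2:**
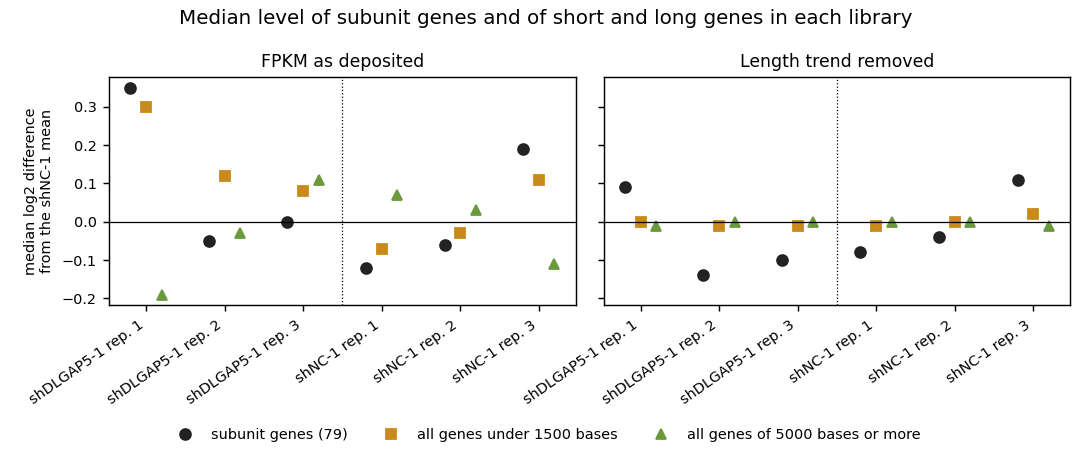
Median log2 difference from the shNC-1 mean (vertical axis) in each library (horizontal axis, shDLGAP5-1 left, shNC-1 right), for the 79 subunit genes and for all tested genes with short or long transcripts, as deposited (left) and with the length trend of each library removed (right). On deposited values the subunit genes and the short genes lie highest in shDLGAP5-1 replicate 1, at 0.35 and 0.30; after the correction the subunit medians lie between −0.14 and 0.11.

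Levels of the subunits were high and unequal. Since FPKM are per length, they can be set side by side between genes: the mean over the 6 libraries ran from 1.24 FPKM for UQCRHL to 481 FPKM for ATP5MD, a small membrane subunit of the ATP synthase, among the 79 tested. The 87 genes made up 1.83, 1.55 and 1.62% of all FPKM in the shDLGAP5-1 libraries, against 1.58, 1.67 and 1.90% in the shNC-1 libraries. These ranges overlapped. Complex II took the smallest share, 0.0298, 0.0283 and 0.0354% in shDLGAP5-1, against 0.0388, 0.0387 and 0.0386% in shNC-1, and it alone of the 5 complexes had shares that did not overlap between the groups.

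**Figure D3:**
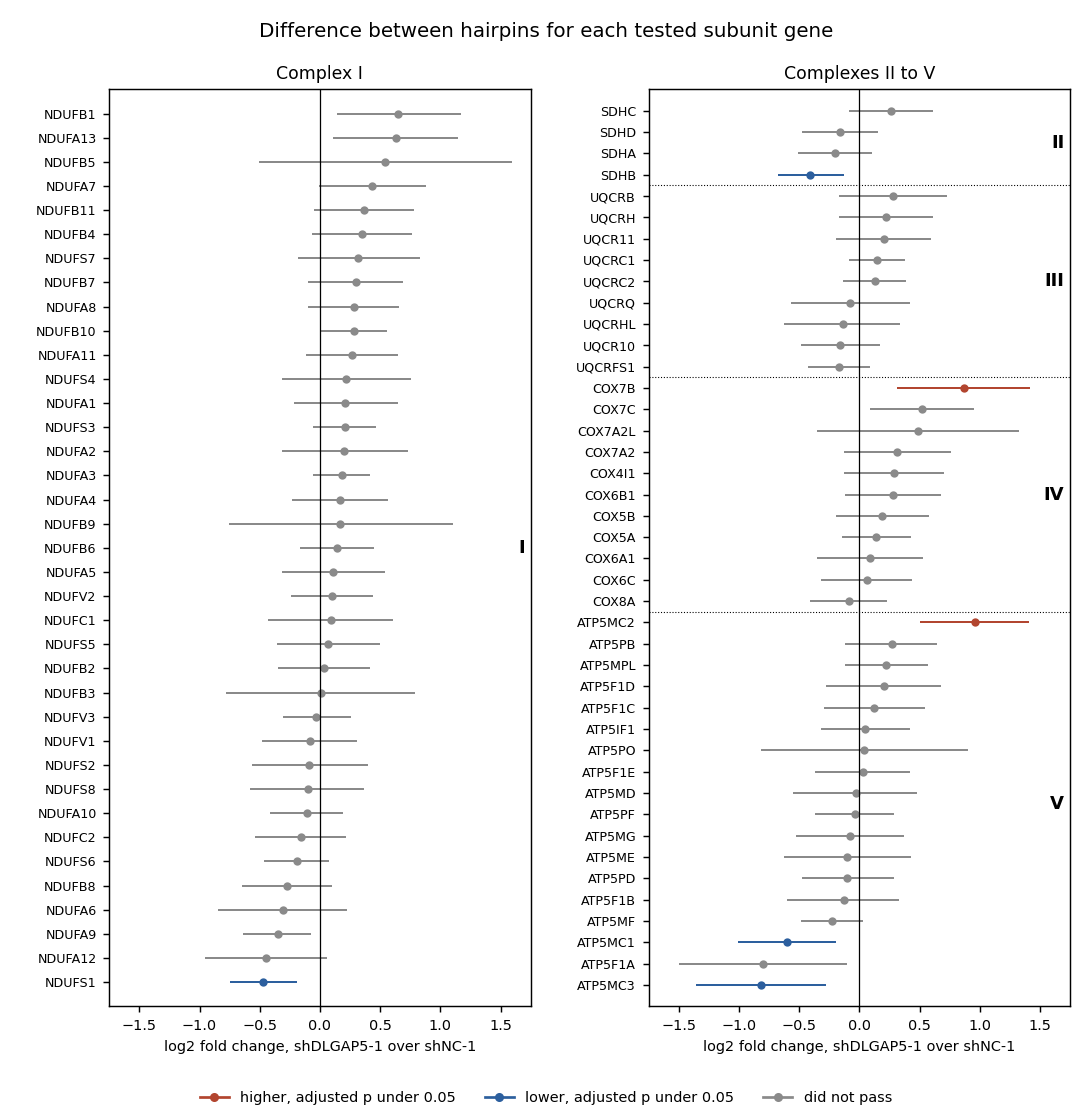
Log2 fold change of FPKM plus 1 (horizontal axis, shDLGAP5-1 over shNC-1; points, with 95% intervals as lines) for the 79 tested subunit genes by complex; coloured genes passed an adjusted p under 0.05. The 6 coloured genes are ATP5MC2 (0.96) and COX7B (0.87) on the right and NDUFS1 (−0.47), SDHB (−0.41), ATP5MC1 (−0.60) and ATP5MC3 (−0.82) on the left.

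Complex I takes electrons from NADH through a flavin and a row of iron-sulfur clusters, and was represented by 7 core and 30 accessory genes. All 37 were tested by limma, 0 were higher and 1 was lower, or 2.7%, against 24.8% of all tested genes. By unadjusted p under 0.05, 4 were higher and 2 lower, where 2906 of all 12714 tested genes were higher and 2006 lower. The median estimate was 0.14, with 25 of 37 estimates above 0, and came to −0.01 with the length trend removed and to 0.00 without shDLGAP5-1 replicate 1, each with 18 above 0. It was −0.08 over the core genes and 0.17 over the accessory genes, whose median longest transcripts are 2528 and 1256 bases.

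NDUFS1, the iron-sulfur protein of the peripheral arm that receives electrons early in the chain, stood at 7.58, 8.81 and 9.16 FPKM in the shDLGAP5-1 libraries, against 12.5, 12.5 and 11.4 FPKM in the shNC-1 libraries. All shDLGAP5-1 values lay below all shNC-1 values. NDUFS1 fell by 0.47 on the log2 scale (standard error 0.11, limma adjusted p = 0.0269), with a 95% interval from −0.74 to −0.20. The call was lost without any 1 of the shNC-1 libraries and without shDLGAP5-1 replicate 2. The gene lies on chromosome 2 from 206114817 to 206159509 in the deposited coordinates, and its longest transcript, of 11819 bases, is among the longest of the subunit genes.

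NDUFB1, an accessory subunit of the membrane arm, had the highest estimate in complex I, with 74.2, 49.8 and 48.5 FPKM in shDLGAP5-1, against 29, 34.5 and 44.5 FPKM in shNC-1. The groups did not overlap, but the gene did not pass (log2 fold change 0.65, standard error 0.21, limma adjusted p = 0.0631), except with quantile normalization (0.70, limma adjusted p = 0.0488) and with the trend of principal transcript length removed (0.41, limma adjusted p = 0.035). NDUFA13, an accessory subunit also known as GRIM-19, did not pass either, with 84.5, 125 and 67.8 FPKM in shDLGAP5-1, against 55.8, 53.3 and 64.3 FPKM in shNC-1 (0.63, limma adjusted p = 0.0753). It passed without shDLGAP5-1 replicate 3 (0.82, limma adjusted p = 0.0273). Its row overlaps 2 others of at least 1 FPKM on its own strand, the higher being AC011448.1 at 4.01 FPKM. NDUFA9, an accessory subunit near the quinone site, stood at 7.51, 6.49 and 7.46 FPKM in shDLGAP5-1, against 9.23, 8.79 and 10.2 FPKM in shNC-1. Its groups did not overlap and it missed the threshold (−0.35, limma adjusted p = 0.0655), which it passed with same-total (−0.45) and median-ratio scaling (−0.46).

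The genes of complex I with the highest levels did not pass. NDUFS5 averaged 242 ± 50.6 FPKM in shDLGAP5-1 and 229 ± 32.2 FPKM in shNC-1, and NDUFB8 averaged 191 ± 31.2 FPKM in shDLGAP5-1 and 230.0 ± 29.1 FPKM in shNC-1 (SD, n = 3 each). NDUFB5, NDUFB9 and NDUFB3 show how far single libraries can part: NDUFB5 read 50.5, 27.9 and 15.5 FPKM in shDLGAP5-1 and 14.9, 14.6 and 30.9 FPKM in shNC-1. Its interval of the log2 fold change was the widest of all subunit genes and reached 1.59. Besides the genes named, NDUFA3, NDUFB10 and NDUFS3 were higher without overlap (0.18, 0.28 and 0.21), and none of these passed.

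Complex II, succinate dehydrogenase, is also an enzyme of the citric acid cycle and holds no mitochondrially encoded subunit. SDHB, its iron-sulfur subunit, was lower in shDLGAP5-1, with 42.7, 36.1 and 40.6 FPKM, against 49.1, 52.7 and 57.7 FPKM in shNC-1. The groups did not overlap, and SDHB fell by 0.41 on the log2 scale (standard error 0.11, limma adjusted p = 0.0378). The call was lost without any 1 of the shNC-1 libraries and without shDLGAP5-1 replicate 2 or 3, and SDHB stood at −0.58 (limma adjusted p = 0.00486) with the length trend removed. The gene spans 17018722 to 17054170 on chromosome 1.

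The flavoprotein subunit SDHA read 25.7, 27.6 and 34.5 FPKM in shDLGAP5-1, against 34.4, 32.7 and 33.1 FPKM in shNC-1, and did not pass (−0.20, limma adjusted p = 0.297). Its pseudogene rows sum to 12.9 FPKM on average, 41.3% of its own level, so its value may share reads with them. Of the 79 tested genes, SDHA was the only one with pseudogene rows above 10% of its level. The membrane anchors SDHC and SDHD had estimates on either side of 0 and did not pass. SDHC stood at 14.8, 13.5 and 10.3 FPKM in shDLGAP5-1, against 10.9, 10.5 and 10.0 FPKM in shNC-1 (0.26, limma adjusted p = 0.228), and passed without shDLGAP5-1 replicate 3 (0.40, limma adjusted p = 0.047). SDHD stood at 61.9, 49.2 and 67.3 FPKM in shDLGAP5-1, against 65.7, 64.8 and 67.1 FPKM in shNC-1 (−0.16, limma adjusted p = 0.419). With shDLGAP5-1 replicate 3 left out and the length trend removed, SDHA, SDHB, SDHC and SDHD all passed, 1 higher and 3 lower. That setting was chosen after seeing the data, and 29.1% of all tested genes passed in it. On all libraries only SDHB passed among them, on the values as deposited and with the length trend removed.

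Complex III passes electrons from ubiquinol to cytochrome c. None of its 9 genes passed by limma, and 0 had an unadjusted p under 0.05. In the other settings only UQCR10 passed, lower, with the length trend removed. UQCRC1, a core protein, read 108, 114 and 101 FPKM in shDLGAP5-1, against 96.5, 98.3 and 96.4 FPKM in shNC-1, without overlap (0.15, limma adjusted p = 0.302). UQCRFS1, the Rieske iron-sulfur protein, read 20.1, 18.4 and 21.8 FPKM in shDLGAP5-1, against 22.0, 22.2 and 23.9 FPKM in shNC-1, also without overlap (−0.17, limma adjusted p = 0.280). UQCRH, the hinge protein, was the highest gene of the complex at 369 ± 70.3 FPKM in shDLGAP5-1 and 314 ± 32.2 FPKM in shNC-1 (SD, n = 3 each). Its copy UQCRHL, at 1.16 ± 0.564 FPKM in shDLGAP5-1 and 1.32 ± 0.106 FPKM in shNC-1, was the lowest subunit gene tested. UQCRB, a small subunit near the quinone site, read 91.8, 58.6 and 71.3 FPKM in shDLGAP5-1 and 52.4, 57.2 and 70.5 FPKM in shNC-1, which overlap (0.28, limma adjusted p = 0.307).

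Complex IV, cytochrome c oxidase, reduces oxygen, and its nuclear genes include general forms and forms restricted to some tissues. The 11 general forms were tested and 1 was higher, or 9.09%, against 24.8% of all tested genes. The 6 tissue forms were at or near 0: COX4I2, COX6A2, COX7A1 and COX7B2 were listed at 0 in all 6 libraries, COX6B2 had at most 0.190 FPKM and COX8C had 0.136 FPKM in shDLGAP5-1 replicate 2 alone. The median estimate of the 11 tested genes, 0.28 with 10 of 11 above 0, was 0.08 with 6 above 0 after the length trend was removed. It was 0.13 without shDLGAP5-1 replicate 1 and 0.12 without shNC-1 replicate 1.

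COX7B, a small subunit of complex IV encoded on chromosome X from 77899438 to 77907376, stood at 66.9, 33.6 and 46.7 FPKM in shDLGAP5-1, against 25.3, 23.4 and 27.8 FPKM in shNC-1. All shDLGAP5-1 values lay above all shNC-1 values. It rose by 0.87 on the log2 scale (standard error 0.23, limma adjusted p = 0.0346). The call was lost without any 1 of the shNC-1 libraries, without shDLGAP5-1 replicate 3 and with median-ratio scaling. COX7C, another small subunit, read 321, 206 and 223 FPKM in shDLGAP5-1, against 164, 165 and 183 FPKM in shNC-1. Its groups did not overlap and it did not pass (0.52, standard error 0.18, limma adjusted p = 0.0712), except with quantile normalization (0.55, limma adjusted p = 0.0298).

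The other general forms overlapped between the groups. COX4I1, a regulatory subunit, averaged 156 ± 31.7 FPKM in shDLGAP5-1 and 127 ± 18.4 FPKM in shNC-1. COX6B1, which faces cytochrome c, averaged 95.1 ± 15.8 FPKM in shDLGAP5-1 and 78.3 ± 13.3 FPKM in shNC-1 (0.28, limma adjusted p = 0.260). COX8A averaged 304 ± 24.9 FPKM in shDLGAP5-1 and 324 ± 40.7 FPKM in shNC-1, and COX6A1 averaged 304 ± 69.8 FPKM in shDLGAP5-1 and 282 ± 36 FPKM in shNC-1 (SD, n = 3 each). COX6A1 had an estimate of 0.09 (limma adjusted p = 0.743), which turned to −0.02 with same-total scaling, −0.03 with median-ratio scaling and −0.11 with the length trend removed. COX7A2L, whose protein joins complexes III and IV into supercomplexes, varied most among them, at 18.6, 31.4 and 34.6 FPKM in shDLGAP5-1 and 11.1, 23.4 and 26.5 FPKM in shNC-1 (0.49, limma adjusted p = 0.341). COX7A2, the form within the enzyme itself, took 79.7, 60.7 and 69.2% of the sum of the pair in shDLGAP5-1 and 81.5, 70.0 and 66.9% in shNC-1, and these shares overlapped. COX7A2 itself read 73.2, 48.5 and 77.8 FPKM in shDLGAP5-1 and 48.6, 54.6 and 53.6 FPKM in shNC-1 (0.31, limma adjusted p = 0.251), and passed without shDLGAP5-1 replicate 2.

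Complex V held 20 genes, of which 18 were tested, 1 was higher and 2 were lower (16.7% called, against 24.8% of all tested genes). All 3 called genes encode the c subunit, the ring protein that carries protons and turns the rotor. ATP5MC1, ATP5MC2 and ATP5MC3 each make a precursor with its own targeting sequence and the same mature protein. The coding ends of the 3 transcripts are printed because the calls rest on telling these genes apart. They are the last 225 coding bases, which encode 75 residues, without the stop codon, from GENCODE release 29 in GRCh38. Capitals mark the 52 positions at which the 3 genes are not all alike.

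ATP5MC1: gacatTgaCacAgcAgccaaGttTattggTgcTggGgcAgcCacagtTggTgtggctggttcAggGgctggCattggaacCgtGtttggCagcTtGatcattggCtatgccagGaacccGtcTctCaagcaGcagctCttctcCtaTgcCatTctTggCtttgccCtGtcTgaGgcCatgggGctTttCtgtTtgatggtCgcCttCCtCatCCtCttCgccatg
ATP5MC2: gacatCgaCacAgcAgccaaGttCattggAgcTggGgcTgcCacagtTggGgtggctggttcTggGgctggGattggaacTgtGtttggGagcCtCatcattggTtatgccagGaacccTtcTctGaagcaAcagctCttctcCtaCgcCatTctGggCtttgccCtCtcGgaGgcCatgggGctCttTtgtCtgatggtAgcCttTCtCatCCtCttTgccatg
ATP5MC3: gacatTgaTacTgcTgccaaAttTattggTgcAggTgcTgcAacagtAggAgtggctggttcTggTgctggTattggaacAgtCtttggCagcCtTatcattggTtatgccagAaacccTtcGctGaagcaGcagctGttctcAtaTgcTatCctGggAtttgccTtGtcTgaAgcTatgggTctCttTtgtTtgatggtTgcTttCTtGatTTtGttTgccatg

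The ATP5MC1 stretch lies on the plus strand of chromosome 17 between 48895222 and 48895766, introns included. That of ATP5MC2 lies on the minus strand of chromosome 12 between 53665317 and 53669260, and that of ATP5MC3 on the minus strand of chromosome 2 between 175178291 and 175179169. Translated, the 3 stretches had 0 amino acid differences. As nucleotides, ATP5MC1 and ATP5MC2 were identical at 200 of 225 bases (88.9%), and ATP5MC3 at 183 of 225 (81.3%) with either. The longest run of bases that any pair shared without a difference was 17. Named pseudogene rows of these genes summed to at most 0.0618 FPKM.

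ATP5MC2 was the subunit gene with the smallest p. It stood at 129, 147 and 166 FPKM in the shDLGAP5-1 libraries, against 93.3, 57.6 and 78.4 FPKM in the shNC-1 libraries. All shDLGAP5-1 values were higher, and it rose by 0.96 on the log2 scale (standard error 0.19, limma adjusted p = 0.0128), with a 95% interval from 0.51 to 1.4. It passed in each of the 6 fits that leave out 1 library (0.77 to 1.11), including the one without shDLGAP5-1 replicate 3, the library with the high leukocyte markers (0.87, limma adjusted p = 0.0319). With the length trend removed it passed on all libraries (0.83, limma adjusted p = 0.0207) and missed the threshold when shDLGAP5-1 replicate 2 or 3 was also left out (adjusted p = 0.0591 and 0.0527). It also missed the threshold with the length trend removed and the replicate numbers added to the fit as a block.

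ATP5MC1 and ATP5MC3 were lower. ATP5MC1 read 64.8, 55.7 and 42.8 FPKM in shDLGAP5-1, against 74.5, 78.9 and 92.9 FPKM in shNC-1, and fell by 0.60 on the log2 scale (standard error 0.17, limma adjusted p = 0.0407). ATP5MC3 read 34.4, 26.3 and 29.8 FPKM in shDLGAP5-1, against 65.2, 37.2 and 64.0 FPKM in shNC-1, and fell by 0.82 (standard error 0.23, limma adjusted p = 0.0379). Neither overlapped between the groups, and neither changed sign in any of the 20 other settings. The call of ATP5MC1 was lost without shDLGAP5-1 replicate 2 or 3 and without any 1 of the shNC-1 libraries. That of ATP5MC3 was lost in 5 of the 6 such fits and held without shNC-1 replicate 2, the library with the lowest shNC-1 value.

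Summed over the 3 genes, the c-subunit messenger overlapped between the groups, at 229, 229 and 239 FPKM in shDLGAP5-1, against 233, 174 and 235 FPKM in shNC-1. ATP5MC2 made up 56.6, 64.2 and 69.5% of this sum in shDLGAP5-1, against 40.1, 33.2 and 33.3% in shNC-1. ATP5MC1 made up 23.5 ± 5.23% in shDLGAP5-1 and 39.0 ± 6.73% in shNC-1, and ATP5MC3 made up 13 ± 1.85% in shDLGAP5-1 and 25.5 ± 3.57% in shNC-1 (SD, n = 3 each). ATP5MC2 was thus the most abundant of the 3 in every shDLGAP5-1 library and in shNC-1 replicate 1, while ATP5MC1 was the most abundant in shNC-1 replicates 2 and 3. These shares come from the values that gave the calls and are no separate evidence.

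**Figure D4:**
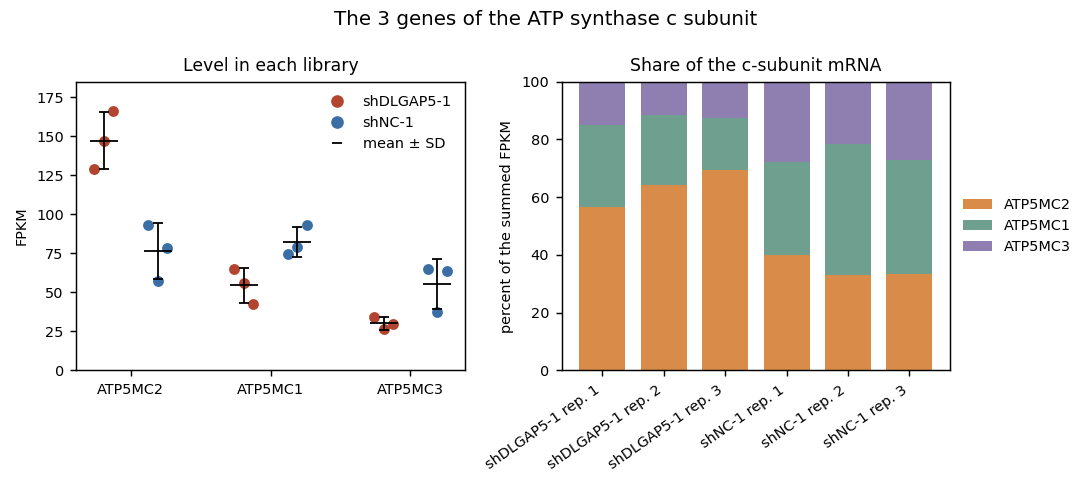
Left, FPKM of ATP5MC2, ATP5MC1 and ATP5MC3 in each library (points; shDLGAP5-1 in red to the left of shNC-1 in blue) with the mean and SD; right, the share of each gene in the summed FPKM of the 3, per library. ATP5MC2 takes 56.6 to 69.5% in the shDLGAP5-1 libraries and 33.2 to 40.1% in the shNC-1 libraries.

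None of the other 15 tested genes of complex V passed by limma on the values as deposited. ATP5F1A, the alpha subunit of the catalytic head, read 71.2, 154 and 142 FPKM in shDLGAP5-1, against 187, 183 and 243 FPKM in shNC-1. The groups did not overlap, the lowest value was in shDLGAP5-1 replicate 1, and the gene did not pass (−0.80, standard error 0.29, limma adjusted p = 0.0875). ATP5F1B, the beta subunit, read 142, 168 and 209 FPKM in shDLGAP5-1, against 166, 167 and 236 FPKM in shNC-1, which overlap (−0.13, limma adjusted p = 0.646). ATP5MF, a membrane subunit, read 153, 137 and 158 FPKM in shDLGAP5-1, against 163, 182 and 181 FPKM in shNC-1, without overlap (−0.23, limma adjusted p = 0.164). It passed with the length trend removed (−0.43, limma adjusted p = 0.0244).

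ATP5IF1, which blocks ATP hydrolysis by the enzyme, averaged 99.3 ± 15.9 FPKM in shDLGAP5-1 and 95.4 ± 12.8 FPKM in shNC-1 (SD, n = 3 each). Its estimate of 0.05 (limma adjusted p = 0.829) turned to −0.06 with same-total scaling, −0.07 with median-ratio scaling and −0.08 with the length trend removed. ATP5MD averaged 482 ± 147 FPKM in shDLGAP5-1 and 481 ± 43.6 FPKM in shNC-1, and ATP5PD of the stalk averaged 285 ± 47.4 FPKM in shDLGAP5-1 and 304 ± 41.1 FPKM in shNC-1 (SD, n = 3 each). Not tested for low values were ATP5MGL, with at most 0.317 FPKM, and the read-through gene ATP5MF-PTCD1, with 0.520 to 1.33 FPKM, whose row overlaps that of ATP5MF.

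The 5 genes that passed only with the length trend removed had estimates from −0.45 to −0.16 on the deposited values. NDUFS6 stood at −0.37 (limma adjusted p = 0.0143) after the correction and at −0.19 before it. NDUFB8 stood at −0.47 after it and −0.27 before it, NDUFA12 at −0.65 and −0.45, UQCR10 at −0.35 and −0.16, and ATP5MF at −0.43 and −0.23, with corrected adjusted p from 0.0148 to 0.0335. NDUFA12 read 37.6, 24.6 and 24.9 FPKM in shDLGAP5-1 and 31.9, 48.4 and 39.0 FPKM in shNC-1, and overlapped between the groups. NDUFB8 and ATP5MF each overlap 2 other rows of at least 1 FPKM, with HIF1AN at 10.8 FPKM and CPSF4 at 23.2 FPKM the highest of these. Of the 79 tested genes, 25 overlap another row of at least 1 FPKM, and whether the quantification used strand is not given in the sources used here.

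Promoters of respiratory chain genes are known for binding sites of NRF1, of the ETS factor GABP (also called NRF2) and of YY1. Windows from 250 bases before to 50 after the RefSeq start, in GRCh38.p14, were found for 67 of the 87 genes. The letters GCGCANGCGC, taken for NRF1, stood on either strand in 16 of these windows (23.9%), against 14.1% of the windows of tested genes and 6.98% of all windows. CCGGAAG, taken for ETS factors, stood in 20 (29.9%), against 24% and 12.2%, and AAGATGGC, taken for YY1, in 12 (17.9%), against 6.89% and 3.52%. None of the 3 patterns stood in the windows of ATP5MC1, ATP5MC2 and COX7B, and no window was found for the called gene ATP5MC3.

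Among the called genes with a window, SDHB and NDUFS1 had a match. The 250 bases before their RefSeq starts are printed, 5′ to 3′ on the strand of the gene, with the ETS letters in capitals; in NDUFS1 they read on the opposite strand. These letters begin 128 bases before the start in SDHB and 157 bases before it in NDUFS1. The SDHB stretch is chr1:17054033-17054282 and the NDUFS1 stretch is chr2:206159445-206159694, both on the minus strand. SDHB also holds the YY1 letters just after its start.

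SDHB: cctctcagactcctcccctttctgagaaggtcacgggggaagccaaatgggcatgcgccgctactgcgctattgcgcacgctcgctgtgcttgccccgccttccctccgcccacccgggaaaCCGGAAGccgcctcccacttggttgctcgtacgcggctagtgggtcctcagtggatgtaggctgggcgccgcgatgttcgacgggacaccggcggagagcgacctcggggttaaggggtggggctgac
NDUFS1: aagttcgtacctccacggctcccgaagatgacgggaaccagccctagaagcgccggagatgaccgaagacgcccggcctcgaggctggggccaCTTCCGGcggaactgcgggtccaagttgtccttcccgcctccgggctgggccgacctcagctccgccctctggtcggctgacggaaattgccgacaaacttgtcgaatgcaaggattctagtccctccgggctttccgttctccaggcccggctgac

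The factors named for these sites did not pass. NRF1 read 6.38, 6.85 and 7.11 FPKM in shDLGAP5-1, against 7.92, 7.43 and 7.32 FPKM in shNC-1, without overlap (−0.14, limma adjusted p = 0.377). The GABP subunit GABPA read 6.43, 5.56 and 8.36 FPKM in shDLGAP5-1 and 6.58, 7.65 and 4.63 FPKM in shNC-1 (0.10, limma adjusted p = 0.744). YY1 read 26.8, 32.4 and 31.3 FPKM in shDLGAP5-1 and 25.1, 25.6 and 36.5 FPKM in shNC-1 (0.07, limma adjusted p = 0.792). The groups overlapped for GABPA and for YY1.

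Of the 13 partner subunits encoded by mitochondrial DNA, 0 passed in either direction by limma on the values as deposited. At an unadjusted p under 0.05, 0 were higher and 1 lower, where 2906 of all 12714 tested genes were higher and 2006 lower. The median estimate of the 13 was 0.01, which turned to −0.24 with quantile normalization, −0.17 with the length trend removed, −0.11 with median-ratio and −0.10 with same-total scaling. Without shDLGAP5-1 replicate 3, 2 of them passed, both higher, where 24.7% of all tested genes passed. These were MT-ND3 of complex I (0.64, limma adjusted p = 0.0398) and MT-CO2 of complex IV (0.58, limma adjusted p = 0.0369). On all libraries MT-ND3 read 2982, 2288 and 1726 FPKM in shDLGAP5-1, against 1569, 1753 and 1722 FPKM in shNC-1, and was not called (0.44, limma adjusted p = 0.175). MT-CO2 read 6745, 6248 and 4579 FPKM in shDLGAP5-1, against 4492, 4327 and 4227 FPKM in shNC-1, without overlap (0.41, limma adjusted p = 0.162). MT-ND4L of complex I read 1731, 2006 and 1896 FPKM in shDLGAP5-1, against 2799, 2671 and 2033 FPKM in shNC-1, also without overlap (−0.40, limma adjusted p = 0.128). It passed with quantile normalization (−0.84, limma adjusted p = 0.017), where MT-ND3 stood at −0.02.

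Of the subunits that the symbols of the rule do not reach, NDUFA4L2, a relative of NDUFA4 induced by low oxygen, rose by 1.29 on the log2 scale (standard error 0.12, limma adjusted p = 0.00113). It read 4.08, 4.29 and 3.61 FPKM in shDLGAP5-1, against 0.900, 1.2 and 1.02 FPKM in shNC-1, and every shDLGAP5-1 value was above every shNC-1 value. It passed in all 19 other settings that tested it. Its row overlaps SHMT2, which has a mean of 147 FPKM. CYC1, the cytochrome c1 of complex III, read 103, 97.1 and 105 FPKM in shDLGAP5-1, against 116, 120 and 132 FPKM in shNC-1, and did not pass (−0.26, limma adjusted p = 0.0994). It passed with same-total scaling (−0.37), with median-ratio scaling (−0.39) and with the length trend removed (−0.40). NDUFAB1, the acyl carrier protein of complex I, stood at −0.13 (limma adjusted p = 0.575).

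Assembly factors, which build the complexes without staying in them, are given by the complex they serve. Counts of this and the following lists are to be read against the 24.8% of all tested genes that passed, 15.3% higher and 9.52% lower. Those at an unadjusted p under 0.05 are to be read against 2906 higher and 2006 lower of all 12714 tested genes. For complex II, 2 of 4 were higher and 0 were lower. SDHAF4, which guards SDHA during its assembly with SDHB, read 7.45, 5.81 and 6.68 FPKM in shDLGAP5-1, against 1.97, 2.57 and 3.35 FPKM in shNC-1. It rose by 1.09 (standard error 0.17, limma adjusted p = 0.00594) and passed in all 20 other settings. SDHAF1, which helps the iron-sulfur clusters into SDHB, read 13.2, 9.58 and 10.6 FPKM in shDLGAP5-1, against 5.06, 5.79 and 6.99 FPKM in shNC-1 (0.80, limma adjusted p = 0.0134), and lost its call in 2 of the 6 fits that leave out 1 library. SDHAF2, which attaches the flavin to SDHA, read 7.49, 8.01 and 8.09 FPKM in shDLGAP5-1, against 9.22, 9.88 and 9.34 FPKM in shNC-1, and passed only with median-ratio scaling or the length trend removed (−0.24 as deposited, limma adjusted p = 0.129). The called pair was thus higher while the subunit SDHB was lower.

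For complex IV, 2 of 24 assembly factors were higher and 6 lower (33.3% called, against 24.8% of all tested genes). COX11, which inserts copper into the catalytic core, read 11.7, 14.8 and 11.5 FPKM in shDLGAP5-1, against 24.6, 24.9 and 28.4 FPKM in shNC-1. It fell by 0.99 (standard error 0.13, limma adjusted p = 0.00335) and passed in all 20 other settings. Its row overlaps 3 others of at least 1 FPKM, TOM1L1 at 25.5 FPKM among them. COA7 fell by 0.81 (limma adjusted p = 0.00450), COX20, a chaperone of the MT-CO2 protein, by 0.66 (limma adjusted p = 0.00707) and TACO1, which activates translation of MT-CO1, by 0.62 (limma adjusted p = 0.00726), and these 3 passed in every setting. CMC2 fell by 0.94 and SCO1 by 0.64, and both calls were lost in fits that leave out 1 library (4 and 5 of 6). The COX20 row overlaps that of HNRNPU, at 114 FPKM. The CMC2 row overlaps that of CENPN, at 33.2 FPKM, and the SCO1 row that of ADPRM, at 5.39 FPKM.

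In the other direction SURF1, an early assembly factor of complex IV, read 46.9, 44.7 and 44.2 FPKM in shDLGAP5-1, against 20.7, 21.3 and 28 FPKM in shNC-1. It rose by 0.94 (standard error 0.13, limma adjusted p = 0.00429) and passed in every setting. Its row overlaps that of SURF2, at 24.5 FPKM on average. COA5 rose by 0.66 (limma adjusted p = 0.00858). The median estimate of the 24 was 0.04, and it turned to −0.07 with same-total scaling, −0.08 with median-ratio scaling and −0.11 with the length trend removed.

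For complex I, 1 of 14 assembly factors was higher and 0 lower, or 7.14%, against 24.8% of all tested genes, and 1 higher and 3 lower had an unadjusted p under 0.05 by limma. NDUFAF3 is an early assembly factor, and its row overlaps that of DALRD3, at 11.7 FPKM. It read 30.3, 30.8 and 36.3 FPKM in shDLGAP5-1, against 19.7, 21.5 and 23.5 FPKM in shNC-1 (0.57, standard error 0.12, limma adjusted p = 0.0155). Its call was lost in 2 of the 6 fits that leave out 1 library and with same-total scaling, where TIMMDC1 (−0.60) and NDUFAF8 (−0.51) passed as lower. The lower count was 3 of 14 with median-ratio scaling and with the length trend removed. On the deposited values TIMMDC1 averaged 16.5 ± 0.516 FPKM in shDLGAP5-1 and 24.2 ± 5.79 FPKM in shNC-1 (limma adjusted p = 0.0661), and NDUFAF8 averaged 56.3 ± 5.78 FPKM in shDLGAP5-1 and 75.1 ± 11.1 FPKM in shNC-1 (limma adjusted p = 0.0767; SD, n = 3 each). For complex III, 1 of 6 was lower: LYRM7, which carries the Rieske protein UQCRFS1 to its place and lost its call in 3 of those 6 fits, read 2.29, 3.02 and 1.45 FPKM in shDLGAP5-1, against 4.57, 4.55 and 4.42 FPKM in shNC-1 (−0.79, limma adjusted p = 0.0230). Its row overlaps HINT1, at 122 FPKM. TTC19 read 17.8, 18.6 and 10.5 FPKM in shDLGAP5-1 and 11, 11.1 and 9.88 FPKM in shNC-1, and passed without shDLGAP5-1 replicate 3 (0.72, limma adjusted p = 0.010). BCS1L, which inserts the Rieske protein, was estimated at −0.27 (limma adjusted p = 0.197). For complex V, 0 of 5 passed by limma in this fit and in the 20 other settings, and 0 had an unadjusted p under 0.05. FMC1, ATPAF2 and TMEM70, those of smallest p, had estimates of 0.17, 0.17 and −0.11, each of which changed sign when 1 shDLGAP5-1 library was left out.

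**Figure D5:**
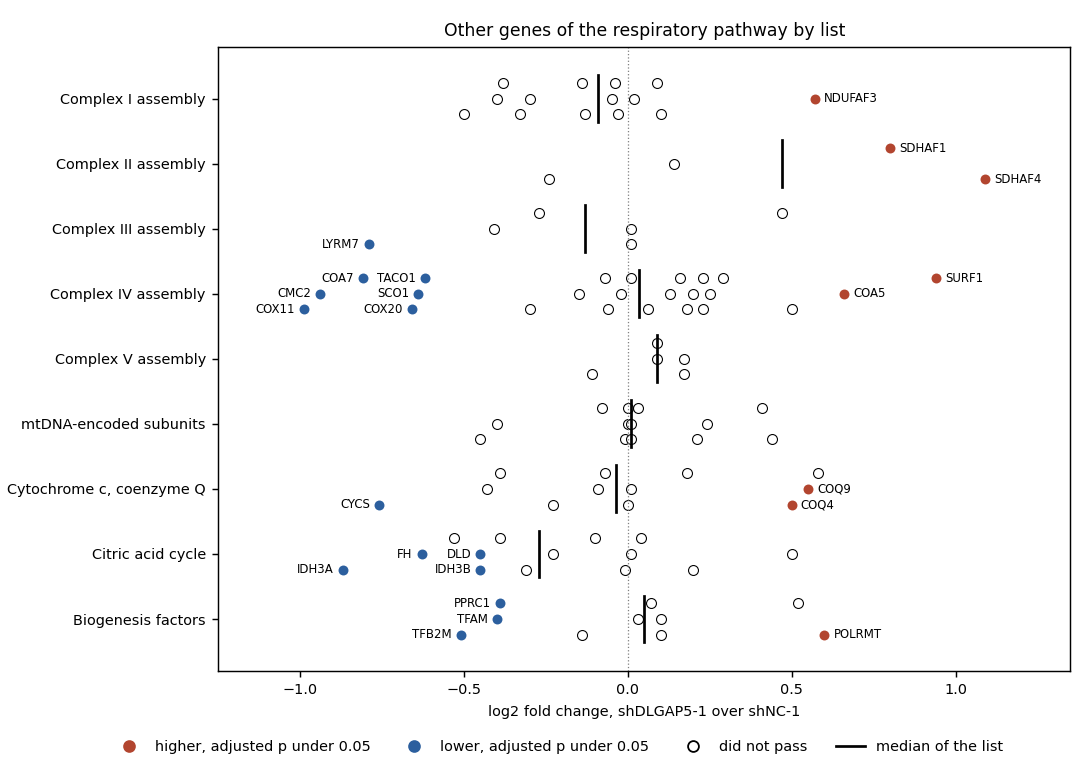
Log2 fold change of FPKM plus 1 (horizontal axis, shDLGAP5-1 over shNC-1) of each tested gene (points) in 9 lists of assembly factors and other genes of the pathway (rows); filled points passed an adjusted p under 0.05 and are named, and the bar is the median of the list. COX11 (−0.99) and SURF1 (0.94) mark the range among complex IV assembly factors, and no filled point lies in the rows of mitochondrially encoded subunits and complex V assembly.

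Of 12 genes for the mobile carriers, cytochrome c and coenzyme Q, and their synthesis, 2 were higher and 1 lower (25%, near the 24.8% of all tested genes). CYCS, cytochrome c itself, read 31.0, 24.2 and 27.0 FPKM in shDLGAP5-1, against 46.1, 46.0 and 48.4 FPKM in shNC-1, without overlap. It fell by 0.76 (standard error 0.12, limma adjusted p = 0.00546) and passed in all 20 other settings. COQ4 and COQ9, of coenzyme Q synthesis, rose by 0.50 and 0.55 (limma adjusted p = 0.0121 and 0.0272), and lost their calls in 2 and 4 of the 6 fits that leave out 1 library.

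Of 14 genes of the citric acid cycle, which feeds the chain, 0 were higher and 4 lower by limma. This came to 28.6%, near the 24.8% of all tested genes. At an unadjusted p under 0.05, 1 was higher and 6 lower, where 2906 of all 12714 tested genes were higher and 2006 lower. The median estimate of the 14 was −0.27 (−0.19 without shDLGAP5-1 replicate 1 and −0.38 with same-total scaling). FH, fumarate hydratase, which takes the product of complex II, read 42, 41.6 and 42.9 FPKM in shDLGAP5-1, against 63.1, 65.5 and 68.7 FPKM in shNC-1. It fell by 0.63 (standard error 0.09, limma adjusted p = 0.00448) and passed in every setting. IDH3A and IDH3B, subunits of the NAD-dependent isocitrate dehydrogenase, fell by 0.87 and 0.45 (limma adjusted p = 0.0236 and 0.0194), and DLD, a shared dehydrogenase subunit, fell by 0.45 (limma adjusted p = 0.0269). These 3 lost their calls in 3 to 5 of the 6 fits that leave out 1 library. The DLD row overlaps that of LAMB1, at 37.5 FPKM, and the IDH3A row that of CIB2, at 3.26 FPKM.

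Of 10 tested factors of mitochondrial transcription and biogenesis, 1 was higher and 3 lower, against 24.8% of all tested genes called, and PPARGC1A and PPARGC1B were below 1 FPKM in all libraries. POLRMT, the mitochondrial RNA polymerase, read 12.9, 12.8 and 14.4 FPKM in shDLGAP5-1, against 8.16, 8.16 and 9.11 FPKM in shNC-1 (0.60, limma adjusted p = 0.00933). Its partners TFAM and TFB2M fell by 0.40 and 0.51 (limma adjusted p = 0.0403 and 0.0190), and the coactivator PPRC1 fell by 0.39 (limma adjusted p = 0.0481). The calls of TFAM and PPRC1 were each lost in 5 of the 6 fits that leave out 1 library, that of TFB2M in 3 and that of POLRMT in 1.

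Among 6 genes of supercomplexes and the response to low oxygen, 2 were higher and 1 lower, against 24.8% of all tested genes called. HIGD1A, which binds complex IV and is induced by low oxygen, read 36.2, 39.8 and 30.6 FPKM in shDLGAP5-1, against 92, 91.7 and 58.1 FPKM in shNC-1, and fell by 1.14 (standard error 0.20, limma adjusted p = 0.00859). EPAS1, the hypoxia-inducible factor HIF-2 alpha, read 20.7, 26.4 and 26.5 FPKM in shDLGAP5-1, against 15.3, 14.5 and 11.8 FPKM in shNC-1, and rose by 0.78 (limma adjusted p = 0.0109). Both passed in all 20 other settings. HIGD2A rose by 0.58 (limma adjusted p = 0.0297) and lost its call in 4 of the 6 fits that leave out 1 library, while HIF1A stood at −0.02 (limma adjusted p = 0.929). The HIGD2A row overlaps that of NOP16, at 24.5 FPKM.

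As another class of abundant transcripts, 20 genes of cytosolic ribosomal proteins had estimates above 0 in all cases, with a median of 0.42. Their median longest transcript is 1849 bases, against 1582 bases for the subunit genes and 3413 bases for all tested genes. RPL28 (5620 bases) and RPS14 (3119 bases) have longer ones. By limma 3 of them passed, RPL28, RPS14 and RPS18, all higher. The median estimate of the 20 was 0.31 with same-total scaling, 0.33 with the length trend removed and 0.12 with quantile normalization. The median of the subunit genes, 0.10, was lower than this on the values as deposited and, with 0.17, higher with quantile normalization.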

How the data were processed

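The authors deposited 1 table of normalized values with no stated unit, which from its values holds FPKM. For the aligner, the quantifier, the annotation and strand, the value is not given in the sources used here. Control columns carry the letters of their group; the other 3 were given to shDLGAP5-1, the only other group. The 12714 genes that reached 1 FPKM in 3 or more libraries entered limma (version 3.58.1, R 4.3.3) with its trended prior, fitted to log2(FPKM + 1) by group alone. P-values were adjusted by Benjamini-Hochberg over all of them, with 0.05 as threshold. This scale understates changes of low genes. The test was checked on simulated data. Lengths and coding bases came from GENCODE release 29 (GRCh38), and promoters from RefSeq (GRCh38.p14). A length trend is a lowess curve, span 0.3, of a library's deviation over longest transcript length, which 12701 of the tested genes have.

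Named were, per complex, the 4 genes of smallest p and the 2 of highest mean, all called genes, tissue and paralog forms, ATP5IF1, and the 3 genes of smallest p in each other list. NDUFA3, NDUFA12, NDUFB3, NDUFB4, NDUFB5, NDUFB8, NDUFB9, NDUFB10, NDUFS3, NDUFS6, UQCR10, ATP5F1B, ATP5MF, NRF1, GABPA, YY1, HIF1A, MT-CO2, the cell type markers given and the further called genes of the lists, where outside this rule, were chosen after their values were seen. The members and lists were chosen with earlier results of these data known. Alternatives covered the pseudocount (0.1), the filter (none, or 5 FPKM), scaling, length, a replicate block, a robust prior and each library left out. The length trend by principal transcript, and its removal without each shDLGAP5-1 library, were chosen after seeing the data.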

Additional observations from a re-analysis of the deposited data

How the results depend on the processing

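DLGAP5 passed by limma in all 20 other settings, at −2.19 to −2.61. Of the subunit genes 2 were higher and 4 lower. The higher count was 1 with no filter, 1 with median-ratio scaling, 4 with quantile normalization, 1 with the replicate block and the length trend removed together, and 1 to 4 with 1 library left out. The lower count was 1 with no filter, 8 with the length trend removed and 11 with the trend of principal transcript length removed, and 0 to 3 with 1 library left out. With no filter, median-ratio scaling and quantile normalization, 2.53, 7.59 and 10.1% of subunit genes passed, against 6.59, 26.1 and 23.4% of all tested genes. With the length trend removed these shares were 12.7 and 29.8%, and by principal transcript length they were 17.7 and 30.9%. With the block and the length trend removed together they were 5.06 and 18.2%. With 1 library left out they ranged from 1.27 to 6.33% and from 10.5 to 24.7%. With the length trend removed, leaving out shDLGAP5-1 replicate 1 gave 1 higher and 7 lower with a median of −0.11. Leaving out replicate 2 instead gave 1 higher and 6 lower, and leaving out replicate 3 gave 2 higher and 8 lower. In these fits 23.4 to 29.1% of all tested genes passed. The 6 called genes kept their signs in all 20 settings. Calls over all genes numbered 3155, against 2071 with no filter and 1335 to 3141 with 1 library left out. Of them 61.6% were higher; this share was 50.8% with quantile normalization, 48.1 and 42.3% with same-total and median-ratio scaling, and 50% with the length trend removed. The cause was not tested.

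Titles give both groups the numbers 1 to 3 and do not say whether same-numbered libraries were prepared together. Over all tested genes, the deviations of same-numbered libraries from their group means correlated at −0.16, 0.02 and −0.16. With 3 libraries per group these values cannot decide the question. With the replicate block 2 subunit genes were higher (COX7B and ATP5MC2) and 1 lower (ATP5MC3), and calls over all genes came to 1464. Called were thus 3.8% of the tested subunit genes, against 11.5% of all tested genes.

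Among the named genes only some that had not passed changed sign. COX6A1 (0.09) stood at −0.02 with same-total and −0.03 with median-ratio scaling, at −0.11 with the length trend removed, with or without the block, and at −0.14 with the principal length. ATP5IF1 (0.05) stood at −0.06, −0.07, −0.08 and −0.19 in the same order. FMC1 (0.17) stood at −0.005 with the length trend removed, with or without the block, MT-ND3 (0.44) at −0.02 with quantile normalization and UQCRH (0.22) at −0.01 with the principal length. With 1 library left out, COX8A ranged from −0.15 to 0.01, COX6A1 from −0.09 to 0.19, UQCRHL from −0.31 to 0.08, ATP5IF1 from −0.07 to 0.16, FMC1 from −0.02 to 0.33, ATPAF2 from −0.02 to 0.30, TMEM70 from −0.29 to 0.06 and NDUFAB1 from −0.23 to 0.01. With the length trend removed and shDLGAP5-1 replicate 1 also left out, UQCRH stood at −0.05, COX6A1 at −0.21 and ATP5IF1 at −0.18. Without replicate 2, UQCRC1 stood at −0.03 and COX6A1 at −0.05. Without replicate 3, COX7A2 stood at −0.05, COX6A1 at −0.06, ATP5IF1 at −0.08, FMC1 at −0.23 and ATPAF2 at −0.19. The shDLGAP5-1 libraries were the shallower ones, so their low genes carry more counting error.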
